A study of Mus musculus with 8 samples.

Results

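The 10 genes described here are imprinted and known for their part in growth around birth. They were followed through the small and large intestine of newborn mice with and without claudin-7: Igf2, H19, Dlk1, Meg3, Dio3, Cdkn1c, Mest, Peg3, Plagl1 and Grb10. They were chosen by name, as the probes whose gene name in the array files is one of the 10, and they account for 25 of 55681 probes, or 10 of the 20116 genes tested. The 4 groups are claudin-7 knockout (KO) small intestine, wild-type (WT) small intestine, KO large intestine and WT large intestine, all from untreated 129SV pups at 3 days of age, with 2 arrays in each group (replicates 2 and 3). Claudin-7 is a protein of epithelial cell junctions. RNA came from gut fragments of 2 cm, so each array reads all cell types of the gut wall together. The labels do not say how the knockout allele was made, which sex the pups were or which samples came from the same pup, so p-values measure only the spread between these samples.

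An imprinted gene is transcribed mainly or only from the copy inherited from 1 parent. Igf2, Dlk1, Dio3, Mest, Peg3 and Plagl1 are known as paternally expressed genes in the mouse, and H19, Meg3, Cdkn1c and Grb10 as maternally expressed ones. Many of these genes are transcribed strongly in the fetus and are turned down after birth. Most of them lie in clusters that share a control region. The H19 probe used here lies 78.2 kb from the Igf2 probe and 883 kb from the Cdkn1c probe on chromosome 7. Dlk1, Meg3 and Dio3 lie within 820 kb on chromosome 12. The arrays do not tell the parental copies apart, so every value below is the RNA of both copies together.

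In KO small intestine Dlk1, a transmembrane protein related to the Notch ligands, was 3.66-fold higher than in WT small intestine, and Dio3, the deiodinase that inactivates thyroid hormone, was 7.48-fold lower. These were 2 of the 10 genes past the threshold, 1 in each direction. Of all genes 9.88% passed, 6.38% as higher and 3.5% as lower. None of the 10 passed in the large intestine, where 0.308% of all genes did. Within WT pups, Dlk1 was higher in large than in small intestine, and Igf2, H19, Dio3 and Cdkn1c were lower. None of the calls named here held under all 17 alternatives, which changed the processing or the fit or left out 1 array. Levels are given as log2 of a probe's signal over the 75th percentile of its array, so that 0 is the 75th percentile and a step of 1 is a factor of 2 in signal. They compare 1 gene across arrays, never different genes. A gene was called when its adjusted p fell under 0.05 (limma, Benjamini-Hochberg over 20116 genes).

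The targeted gene, Cldn7, read 2.21 and 0.94 in KO small intestine against 5.89 and 5.93 in WT small intestine, and 2.08 and 2.16 in KO large intestine against 5.70 and 5.56 in WT large intestine. The 2 arrays of a group correlated across genes at r of 0.980 to 0.991. The labelled segments were set against markers of their epithelium. The summed signal of 6 small intestine epithelium markers, as multiples of the 75th percentile, was 380 to 659 in KO small and 513 to 594 in WT small intestine, and 30.8 to 57.2 in the large intestine groups. That of 6 large intestine epithelium markers was 281 to 353 in KO large and 184 to 195 in WT large intestine, and 21.5 to 78.8 in the small intestine groups, though 2 of these 6, Car4 and Slc26a3, were lower in WT large than in WT small intestine (-1.30 and -4.17, adjusted p = 0.0226 and 0.0201 in limma). Some arrays stood apart by genes of other tissues or of the sex chromosomes. Alb, the serum albumin of liver, read 5.23 on KO large intestine array 2 and between -8.38 and -4.53 on the other 7 arrays. Amy2a5, a pancreatic amylase, read 2.05 on KO large intestine array 3 and 2.30 on WT large intestine array 2, against -9.21 to -3.86 on the other 6. Array 3 of each KO group also had high Xist, the RNA that coats the silenced X chromosome (-2.42 in small and -2.43 in large intestine), and low Y-linked Ddx3y (-8.47 and -9.0), while no WT array did. The part of the pups' sex in the results was not tested.

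Probe sequences of the 2 noncoding RNAs and Dlk1 are shown here because the array holds probes at more than 1 position for each of these genes. Whether the probes lie in exons was not known. The 5′-most H19 probe had signals of 27.3 to 85.6, against 93365 to 388912 for the one that stood for H19. Positions are on mouse build mm9, per the file headers, and all sequences are written 5′ to 3′ as on the array. The Dlk1 probe shown lies at chr12:110698502-110698561 on the plus strand, and the one that stood for Dlk1 in the levels below at chr12:110698721-110698781 on the same strand. The Meg3 probes lie at chr12:110799558-110799617 and chr12:110809678-110809737 on the plus strand. The H19 probes lie at chr7:149762417-149762476 and chr7:149761492-149761551 on the minus strand. The probes that stood for the other genes lie at chr7:149839661-149839720 (Igf2, minus), chr7:150644753-150644812 (Cdkn1c, minus), chr7:6658774-6658833 (Peg3, minus), chr12:111518792-111518851 (Dio3, plus), chr6:30698279-30698338 (Mest, plus), chr10:12850832-12850891 (Plagl1, plus) and chr11:11833165-11833224 (Grb10, minus).
Dlk1, upstream probe: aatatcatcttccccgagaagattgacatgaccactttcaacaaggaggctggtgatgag
Meg3, upstream probe: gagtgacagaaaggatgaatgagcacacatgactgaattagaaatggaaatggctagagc
Meg3, downstream probe: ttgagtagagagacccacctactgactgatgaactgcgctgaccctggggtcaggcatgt
H19, 5′-most probe: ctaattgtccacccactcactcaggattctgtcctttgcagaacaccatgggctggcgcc
H19, probe that stood for the gene: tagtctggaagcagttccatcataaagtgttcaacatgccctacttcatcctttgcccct

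The Dlk1 to Dio3 region of chromosome 12 held both genes that passed in the small intestine. Dlk1 read 4.23 and 5.66 in KO small intestine, against 3.13 and 3.02 in WT small intestine. It read 5.32 and 5.55 in KO large intestine, against 4.73 and 4.93 in WT large intestine. All KO arrays lay above all WT arrays of the same segment, and the WT small intestine stood lowest of the 4 groups. The difference in the small intestine was 1.87 ± 0.43 (log2, SE; adjusted p = 0.0461 in limma), with a 95% interval of 0.84 to 2.91. The large intestine gave 0.61 ± 0.43, with an interval from -0.43 to 1.64 and an adjusted p of 0.568 in limma. The second Dlk1 probe gave 2.37 ± 0.58 in the small intestine. Adjusted over all probes, neither Dlk1 probe passed in limma (adjusted p = 0.0576 for the one that stood for the gene and 0.0619 for the second).

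The Dlk1 difference was decided in size by KO small intestine array 3, which read 5.66. Without that array it was 1.16, with an adjusted p of 0.109 in limma. It passed under 6 of 17 alternatives, with adjusted p between 0.00998 and 0.187. The adjusted p was 0.0878 without WT small intestine array 2, 0.187 without WT small intestine array 3, 0.0674 without either KO large intestine array and 0.0915 without either WT large intestine array. Its sign was the same under all 17.

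Meg3, a long noncoding RNA transcribed from the maternal copy of the same region, read 2.32 and 3.66 in KO small intestine, against 1.21 and 1.15 in WT small intestine. It read 2.46 and 2.32 in KO large intestine, against 2.05 and 3.45 in WT large intestine. The small intestine groups did not overlap, and those of the large intestine did. The small intestine difference of 1.81 ± 0.56 missed the threshold (adjusted p = 0.0791 in limma), as did that of the upstream Meg3 probe shown above, 1.68 (adjusted p = 0.0624 over all probes). Both probes had negative differences, -0.36 and -0.38, in the large intestine. The small intestine difference passed under 1 of 17 alternatives, without KO small intestine array 2 (2.48, adjusted p = 0.0372 in limma).

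Dio3 read -6.36 and -6.24 in KO small intestine, against -3.73 and -3.06 in WT small intestine. These are signals of 32.1 and 45.3 against 233 and 388, all called well above background by the scanner software. Its level was -5.02 and -4.21 in KO large intestine, against -4.84 and -4.86 in WT large intestine. KO small intestine was thus the lowest of the 4 groups and WT small intestine the highest, while the large intestine groups overlapped. The small intestine difference was -2.90 ± 0.34 (adjusted p = 0.0150 in limma), with a 95% interval of -3.70 to -2.10. The large intestine gave 0.23 ± 0.34 (adjusted p = 0.776).

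The direction of Dio3 in the small intestine was the same under all 17 alternatives, with values of -3.24 to -1.82. The value of -1.82 came from another processing of the intensities, not from an omitted array. The KO small intestine signals were low, at 32.1 and 45.3. The Dio3 difference passed under 12 of the 17 alternatives. Its adjusted p in limma was 0.0768 without KO small intestine array 3, 0.0702 without WT small intestine array 3, 0.0527 without either WT large intestine array and 0.0818 in a fit of the 2 small intestine groups alone.

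**Figure D1:**
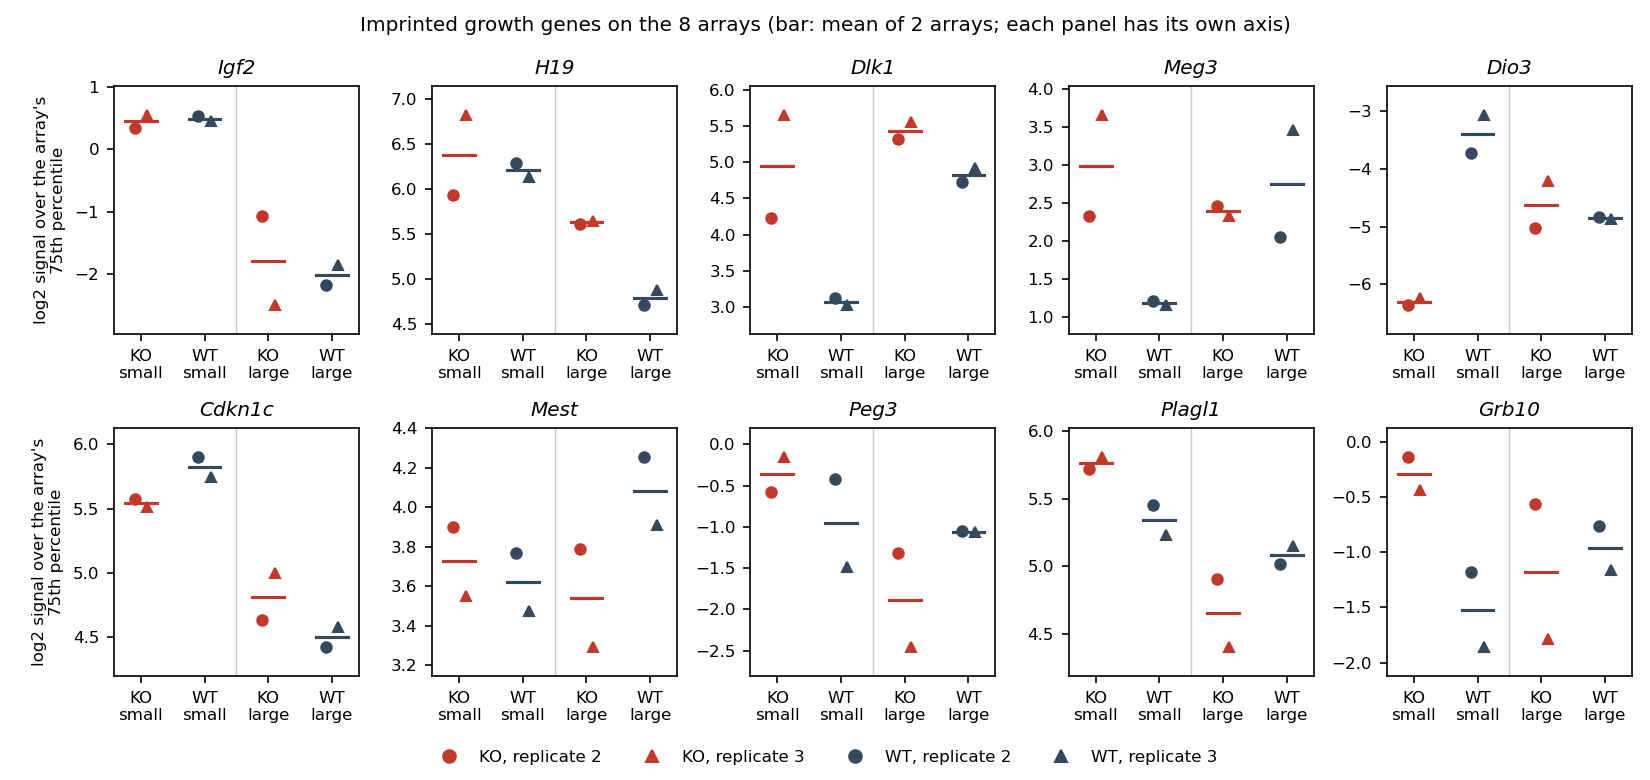
Level of each of the 10 genes (log2 scale relative to the 75th percentile of its array, own axis per panel) on the 8 arrays, with KO in red and WT in dark blue, circles for replicate 2, triangles for replicate 3 and a bar at the mean of 2 arrays. Dio3 is lowest on both KO small intestine arrays, Dlk1 and Meg3 are lowest on both WT small intestine arrays, and Igf2, H19 and Cdkn1c are lower in WT large than in WT small intestine.

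On chromosome 7, the differences of H19, Igf2 and Cdkn1c between the segments of WT pups were larger than those between the genotypes in either segment. Igf2, the fetal growth factor, read 0.34 and 0.55 in KO small intestine, against 0.53 and 0.45 in WT small intestine. It read -1.08 and -2.50 in KO large intestine, against -2.17 and -1.85 in WT large intestine. Genotypes overlapped in both segments and all large intestine arrays lay below all small intestine arrays. The KO difference was -0.04 ± 0.44 in the small intestine (95% interval -1.08 to 1.0, adjusted p = 0.961 in limma) and 0.23 ± 0.44 in the large intestine (adjusted p = 0.838).

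H19, a long noncoding RNA that lies beside Igf2 and is transcribed from the other parental copy, read 5.94 and 6.83 in KO small intestine, against 6.29 and 6.13 in WT small intestine. Its level was 5.62 and 5.65 in KO large intestine, against 4.71 and 4.88 in WT large intestine. The small intestine groups overlapped, and in the large intestine both KO arrays lay above both WT arrays. The large intestine difference was 0.84 ± 0.30 (95% interval 0.12 to 1.56), with an unadjusted p of 0.0286 and an adjusted p of 0.326 in limma, and so did not pass. Across the 7 H19 probes it ranged from 0.15 to 1.09, the smallest at the 5′-most probe shown above, which the scanner called well above background on 7 of 8 arrays.

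Cdkn1c, which encodes the cell cycle inhibitor p57, read 5.58 and 5.51 in KO small intestine, against 5.91 and 5.75 in WT small intestine. It read 4.64 and 5.0 in KO large intestine, against 4.42 and 4.58 in WT large intestine. KO arrays lay below WT in the small intestine and above WT in the large intestine, with differences of -0.28 ± 0.21 and 0.31 ± 0.21 (adjusted p = 0.395 and 0.541 in limma). Neither passed.

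The other 4 genes lie on chromosomes of their own or, for Peg3, far from the H19 cluster on chromosome 7. Grb10, an adaptor that dampens signalling of the insulin and IGF1 receptors, read -0.13 and -0.44 in KO small intestine, against -1.18 and -1.86 in WT small intestine. It read -0.57 and -1.78 in KO large intestine, against -0.76 and -1.16 in WT large intestine. Both KO small intestine arrays were the highest of all 8, and the large intestine groups overlapped. The small intestine difference of 1.23 ± 0.44 had an unadjusted p of 0.0270 and an adjusted p of 0.109 in limma.

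Plagl1, a zinc finger transcription factor also called Zac1, read 5.72 and 5.81 in KO small intestine, against 5.45 and 5.23 in WT small intestine. Its level was 4.90 and 4.40 in KO large intestine, against 5.02 and 5.15 in WT large intestine. KO lay above WT in the small and below WT in the large intestine, by 0.42 ± 0.23 and -0.43 ± 0.23 (adjusted p = 0.259 and 0.463 in limma). Of the other 3 Plagl1 probes, the one that overlaps in sequence gave 0.43 and -0.40, and the remaining 2 gave 0.010 and -0.0095 in the small and -0.23 and -0.092 in the large intestine. Peg3, a zinc finger protein, read -0.57 and -0.15 in KO small intestine, against -0.42 and -1.48 in WT small intestine, and -1.32 and -2.46 in KO large intestine, against -1.05 and -1.06 in WT large intestine. The small intestine groups overlapped (0.59 ± 0.47) and in the large intestine both KO arrays were lower (-0.83 ± 0.47), without passing in either (adjusted p = 0.436 and 0.488 in limma). At the second Peg3 probe it was the small intestine groups that did not overlap (1.04) and the large intestine groups that did (-0.40).

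Mest, which encodes a protein with a hydrolase fold, read 3.90 and 3.55 in KO small intestine, against 3.77 and 3.47 in WT small intestine. It read 3.79 and 3.29 in KO large intestine, against 4.26 and 3.91 in WT large intestine. The small intestine groups overlapped, and in the large intestine both KO arrays were lower. The differences were 0.10 ± 0.27 and -0.54 ± 0.27 (adjusted p = 0.825 and 0.433 in limma), and the 3 Mest probes gave 0.09 to 0.13 in the small and -0.56 to -0.51 in the large intestine.

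**Figure D2:**
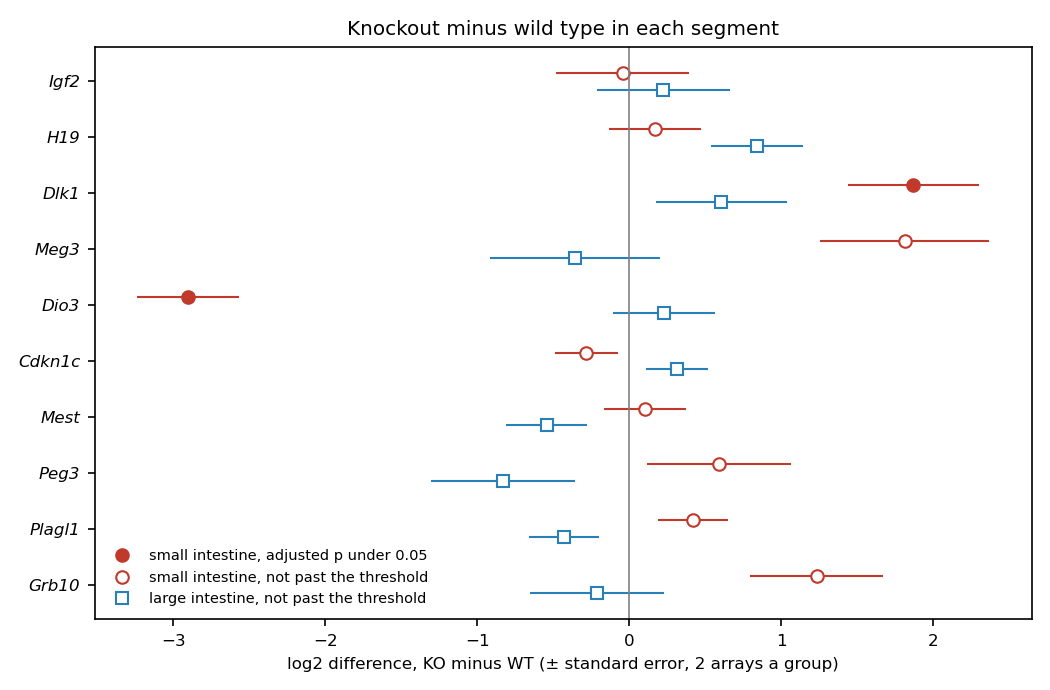
Difference of KO minus WT (log2, point, with its standard error as a line) for each gene in the small intestine (red circles) and the large intestine (blue squares), filled where the adjusted p was under 0.05. Dlk1 at 1.87 and Dio3 at -2.90 in the small intestine are the filled points.

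Over the 10 genes in the small intestine, KO arrays lay above WT arrays without overlap for 4 genes (Dlk1, Meg3, Plagl1, Grb10) and below them for 2 (Dio3, Cdkn1c), where 59.3% of all genes did not overlap (26.6% higher, 32.7% lower). The median difference was 0.30 for the 10, against -0.10 for all genes. In the large intestine 3 genes lay above (H19, Dlk1, Cdkn1c) and 3 below (Mest, Peg3, Plagl1) without overlap, where 55.3% of all genes did not overlap (27.6% higher, 27.7% lower). The median was 0.01 for the 10, against -0.00 for all genes. At an unadjusted p under 0.05 in limma, 4 of the 10 differed in the small intestine (31.4% of all genes) and 1, H19, in the large intestine (13.3%).

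The fit over both segments together took the 4 arrays of a genotype as independent. None of the 10 passed in it in limma, where 0.651% of all genes did. Only 1, Dlk1, had an unadjusted p under 0.05 (15.2% of all genes). Its difference was 1.24 ± 0.38 (adjusted p = 0.182) and its sign was the same in both segments. Whether the KO difference itself changed between segments was tested as an interaction in the same fit. None of the 10 passed, where 0.139% of all genes did, and 3 had an unadjusted p under 0.05 (Dio3, Meg3 and Plagl1; 25.8% of all genes). For Dio3 the large intestine difference exceeded that of the small intestine by 3.13 ± 0.47 (adjusted p = 0.0970 in limma), and for Meg3 the same quantity was -2.17 ± 0.79 (adjusted p = 0.153). The segments were therefore not shown to differ in the KO change of any of the 10 genes. Without KO small intestine array 2 this test passed for Dio3 (3.07, adjusted p = 0.0494 in limma) and Dlk1 (-1.98, adjusted p = 0.0460).

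Between the segments of WT pups, 5 of the 10 passed, 1 as higher and 4 as lower, where 19.9% of all genes did (9.93% in each direction). Dlk1 was 3.37-fold higher in WT large than in WT small intestine (1.75 ± 0.43, adjusted p = 0.0354 in limma). Igf2 was 5.66-fold lower (-2.50 ± 0.44, adjusted p = 0.0123), and H19 was 2.68-fold lower (-1.42 ± 0.30, adjusted p = 0.0230). Cdkn1c was 2.50-fold lower (-1.32 ± 0.21, adjusted p = 0.00833), and Dio3 was 2.73-fold lower (-1.45 ± 0.34, adjusted p = 0.0291). H19, Igf2 and Cdkn1c of chromosome 7 were thus all lower in WT large intestine. Of the 12 other genes between H19 and Cdkn1c, 3 passed between WT segments, and the median difference of the 12 was -0.09. Meg3 was 1.57 ± 0.56 higher and missed the threshold (adjusted p = 0.0918 in limma). For 9 of the 10 genes the WT segments did not overlap, Peg3 being the exception, where 69.3% of all genes did not overlap.

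These calls between WT segments did not survive every omission of an array. Each of the 5 kept its sign under all 17 alternatives. Without WT large intestine array 2 or array 3, none of the 5 passed: the adjusted p in limma was 0.0844 and 0.0650 for Igf2, 0.125 and 0.104 for H19, 0.131 and 0.166 for Dlk1, 0.130 and 0.139 for Dio3, and 0.0712 and 0.0553 for Cdkn1c. Without WT small intestine array 3 the values were 0.0502 for Igf2, 0.0787 for H19, 0.131 for Dlk1 and 0.134 for Dio3. Without WT small intestine array 2 they were 0.0762 for H19 and 0.0859 for Dlk1, and without either KO large intestine array 0.0549 for Dlk1.

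Igf2, Dio3, Cdkn1c and Grb10 were each reported from 1 probe, so their values have no second reading here. Where a gene had more probes, these mostly repeated each other between the WT segments. The 7 H19 probes gave -1.93 to -1.36, and 2 of them passed over all probes in limma (adjusted p = 0.0281 and 0.0284), while the other 5 did not (adjusted p = 0.0662 to 0.0857). The first of the 2 was the 5′-most H19 probe, whose signals were 27.3 to 85.6. The 2 Dlk1 probes gave 1.75 and 2.24 (adjusted p = 0.0425 and 0.0476 over all probes) and the 2 Meg3 probes 1.57 and 1.60 (adjusted p = 0.106 and 0.0478). Plagl1 was the exception. One of its 4 probes, at chr10:12848851-12848910, gave -1.86 ± 0.32 in WT large minus WT small intestine (adjusted p = 0.0142 over all probes in limma), while the other 3 gave -0.19 to -0.29. The Plagl1 probe that stood for the gene shares a run of 26 identical bases with another one of the 4, so these are not independent readings.

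**Figure D3:**
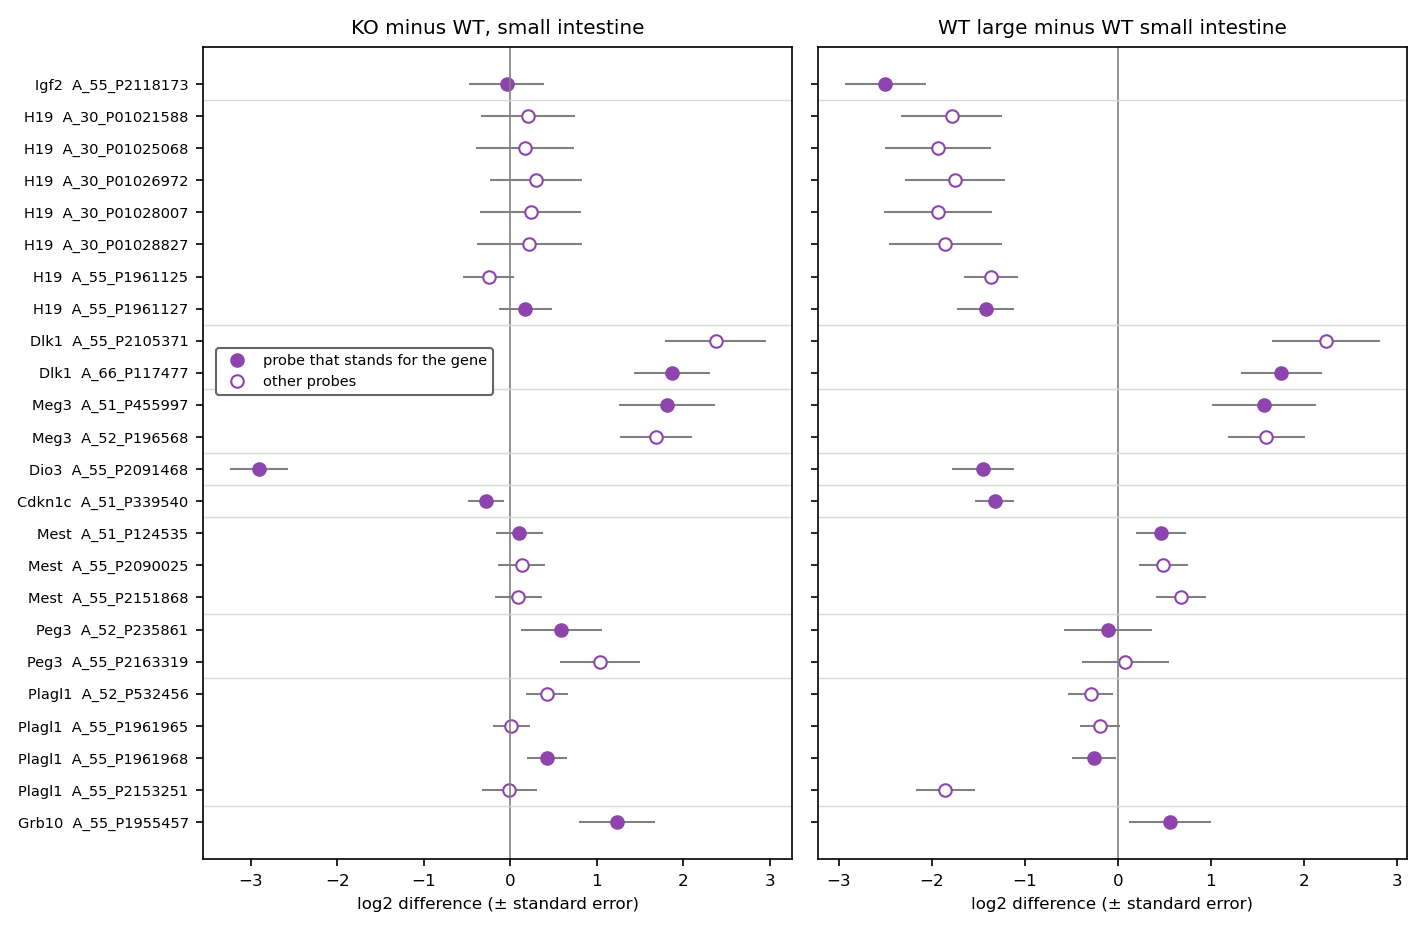
Difference (log2, point, with its standard error as a line) at each of 24 probes, for KO minus WT in the small intestine (left panel) and WT large minus WT small intestine (right panel), with filled points for the probe that stands for the gene. Both Dlk1 probes and both Meg3 probes lie above 0 in both panels, and 1 Plagl1 probe at -1.86 lies apart from the other 3 in the right panel.

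The groups were also ordered by mean for each gene, and neighbouring groups were checked for overlap of their arrays. Between KO and WT, 59.3% of all genes did not overlap in the small and 55.3% in the large intestine. Between WT segments 69.3% did not, so a lack of overlap is not a call. For Dio3 the order was WT small, KO large, WT large and KO small intestine, with only the large intestine groups overlapping. For Dlk1 it was KO large, KO small, WT large and WT small intestine, and only the lowest group was clear of the one above it. For Meg3 the order was KO small, WT large, KO large and WT small intestine, again with only the lowest clear. For Cdkn1c (WT small, KO small, KO large, WT large) and Plagl1 (KO small, WT small, WT large, KO large) no neighbours overlapped. Neither gene passed between KO and WT of a segment in limma. H19 followed the order KO small, WT small, KO large and WT large intestine, with overlap between the small intestine groups.

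The genes that lie between Dlk1 and Dio3 on chromosome 12 were read beside them, in order of position. Of 6 such genes, 2 passed in the small intestine, where 9.88% of all genes did. Mirg, a noncoding host of many microRNAs, read 1.5 and 1.21 in KO small intestine, against -0.60 and -0.80 in WT small intestine, a difference of 2.05 ± 0.33 (adjusted p = 0.0284 in limma). Dio3os, the noncoding RNA that starts 1162 bases from Dio3 on the opposite strand, read -5.73 and -5.50 in KO small intestine, against -1.13 and -0.11 in WT small intestine, a difference of -4.99 ± 0.36 (adjusted p = 0.00361). Dio3os was thus low on the same KO arrays as Dio3, and Mirg high on the same ones as Dlk1 and Meg3. Dio3os read -3.14 and -3.66 in KO large intestine, against -1.88 and -1.94 in WT large intestine, without overlap and without passing (-1.49, adjusted p = 0.193 in limma).

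Between H19 and Cdkn1c on chromosome 7, 2 of 12 genes passed in the small intestine (9.88% of all genes). Kcnq1, a potassium channel subunit, read -0.06 and 0.22 in KO small intestine, against 2.48 and 3.19 in WT small intestine (-2.75 ± 0.30, adjusted p = 0.0125 in limma). Trpm5, a cation channel of chemosensory cells, was higher by 1.62 (adjusted p = 0.0499). Igf2os, the transcript antisense to Igf2, read 2.47 and 0.78 in KO small intestine, against 3.35 and 3.59 in WT small intestine, which missed the threshold (-1.85, adjusted p = 0.0601). It passed between WT segments at -4.59 (adjusted p = 0.00249), in the same direction as Igf2. No gene of either interval passed in the large intestine.

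**Figure D4:**
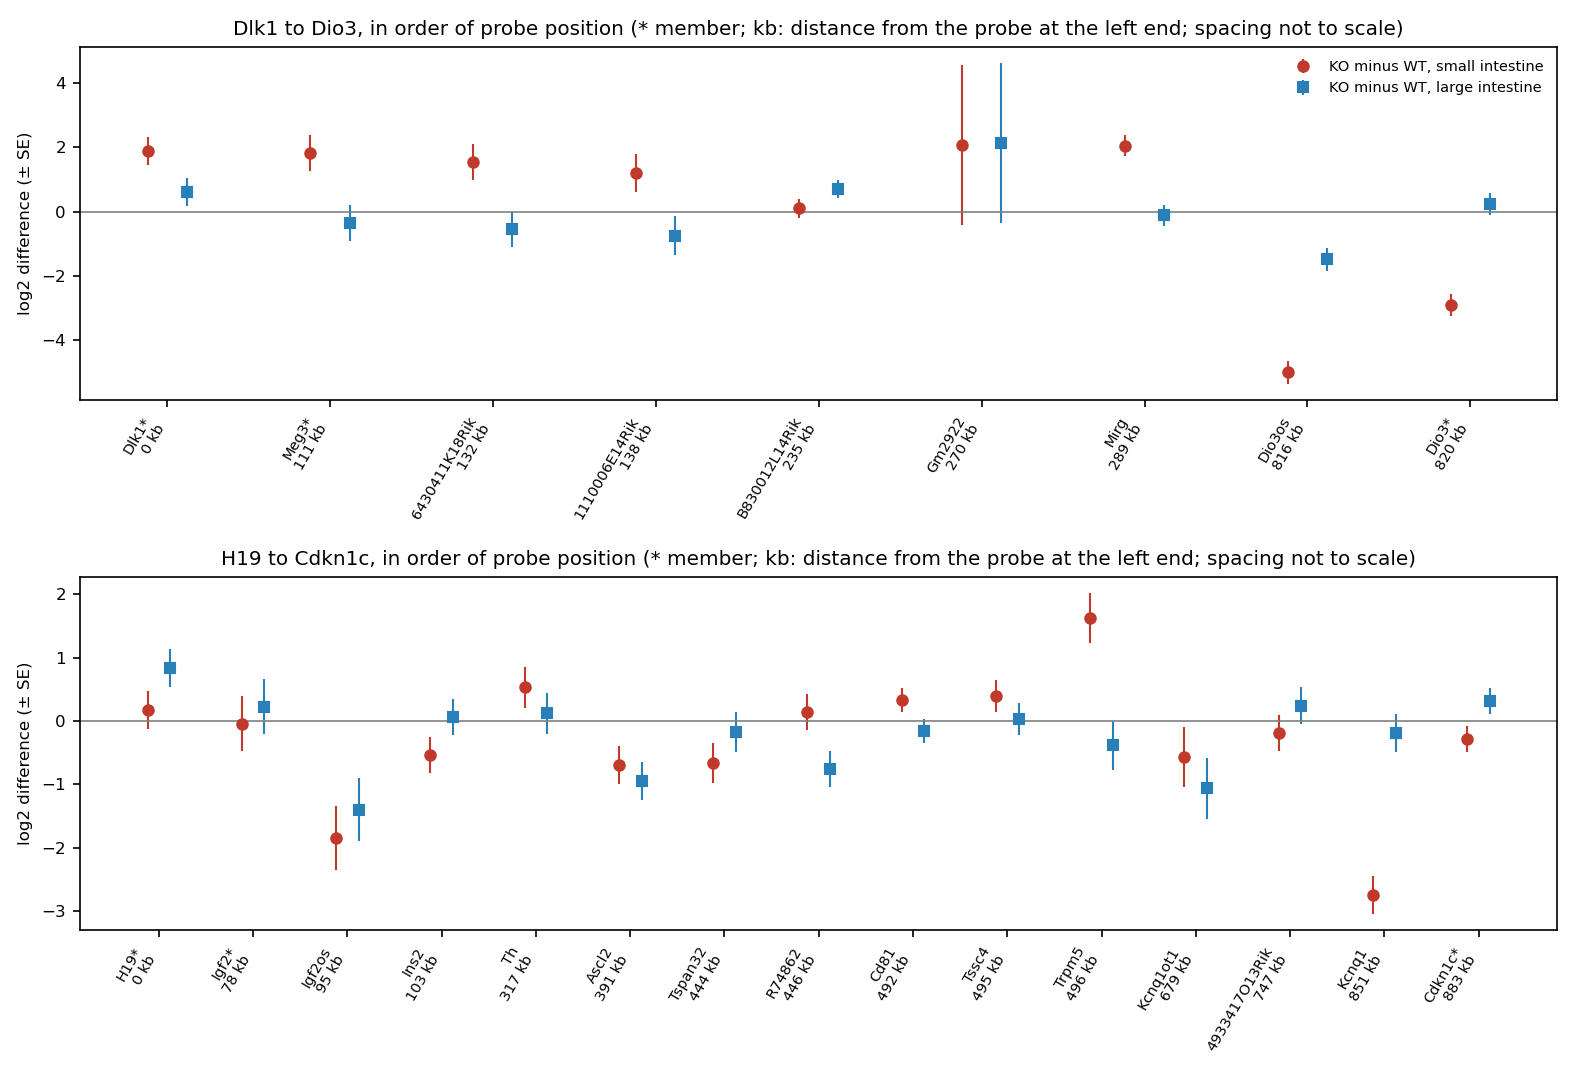
KO minus WT difference (log2, point, with its standard error) in the small (red circles) and large (blue squares) intestine for the genes from Dlk1 to Dio3 (top) and from H19 to Cdkn1c (bottom), in order of position and labelled with the distance in kb from the probe at the left end; genes among the 10 carry an asterisk. Dio3os and Dio3 lie at -4.99 and -2.90 in the small intestine, at the right end of a region whose left end (Dlk1, Meg3) lies at 1.87 and 1.81.

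The start regions of these chromosome 12 genes are shown because Dlk1 and Meg3 lay above WT, and Dio3 and Dio3os below WT, on both KO small intestine arrays. RefSeq windows (GRCm38.p6) from 250 bases before to 50 after the start were at hand for 8 of the 10 genes. The windows are Dlk1 at chr12:109452573-109452872, Meg3 at chr12:109540746-109541045 and Dio3 at chr12:110278980-110279279 on the plus strand, and Dio3os at chr12:110278019-110278318 on the minus strand. Capitals mark matches, on either strand, to the core of the GC box (GGGCGG), to the usual letters of a TATA box (TATAAA) and to an 8-letter palindrome that was searched beside them (GGGGCCCC), with overlapping matches in 1 run.
Dlk1: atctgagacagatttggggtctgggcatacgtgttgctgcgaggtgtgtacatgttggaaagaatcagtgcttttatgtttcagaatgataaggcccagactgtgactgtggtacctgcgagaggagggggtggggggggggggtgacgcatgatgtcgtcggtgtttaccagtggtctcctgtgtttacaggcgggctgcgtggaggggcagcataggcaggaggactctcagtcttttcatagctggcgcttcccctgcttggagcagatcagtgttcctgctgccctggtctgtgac
Meg3: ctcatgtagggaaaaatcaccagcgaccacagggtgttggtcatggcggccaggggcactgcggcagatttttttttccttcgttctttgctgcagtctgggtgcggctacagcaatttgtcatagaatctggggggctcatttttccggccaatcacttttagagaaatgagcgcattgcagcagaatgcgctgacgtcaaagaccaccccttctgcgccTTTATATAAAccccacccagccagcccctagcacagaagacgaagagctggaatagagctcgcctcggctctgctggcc
Dio3: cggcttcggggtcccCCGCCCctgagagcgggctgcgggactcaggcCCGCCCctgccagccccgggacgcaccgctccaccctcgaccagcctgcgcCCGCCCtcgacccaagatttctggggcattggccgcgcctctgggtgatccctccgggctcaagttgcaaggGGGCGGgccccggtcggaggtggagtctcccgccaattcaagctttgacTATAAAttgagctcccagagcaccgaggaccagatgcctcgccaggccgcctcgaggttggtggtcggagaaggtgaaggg
Dio3os: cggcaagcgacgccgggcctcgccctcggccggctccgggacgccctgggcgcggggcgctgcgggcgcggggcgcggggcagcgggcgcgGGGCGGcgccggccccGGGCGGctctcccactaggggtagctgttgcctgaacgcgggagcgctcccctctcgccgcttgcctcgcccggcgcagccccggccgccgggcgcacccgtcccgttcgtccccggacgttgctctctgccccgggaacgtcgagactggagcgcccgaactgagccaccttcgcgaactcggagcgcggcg

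Among the windows of the 8 genes, GGGCGG occurred in 8 of 15 windows, from 5 genes, and in 35.7% of all 32851 mouse windows of the table. The 8 include overlapping Mest windows, at chr6:30737800-30738099 and chr6:30737803-30738102, that hold the same match. TATAAA occurred in 2 of the 15, of Meg3 and Dio3, and in 13.6% of all windows. GGGGCCCC occurred in 1 of the 15, of Peg3, and in 1.08% of all windows. The number of CpG pairs was 9 for Dlk1, 13 for the Meg3 window shown, 25 for Dio3 and 53 for Dio3os, against a median of 7 over all windows. A second Meg3 window, at chr12:109545148-109545447, held 1 CpG pair and no TATAAA. A match describes the letters of the window only.

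Marker genes of some cell types of the gut wall also differed between KO and WT small intestine, beside Dlk1 and Dio3. In bulk RNA, fewer cells of a type and less RNA per cell cannot be told apart. Of 6 enteric neuron markers 5 were higher in KO small intestine (median of the list 1.99), of 4 glial markers 3 (median 1.92), of 4 mesothelial markers 3 (median 1.96), of 8 fibroblast markers 3 (median 1.02) and of 6 smooth muscle markers 1 (median 1.35). Of all genes 6.38% were higher, and their median was -0.10. The summed signal of the neuron markers, as multiples of the 75th percentile, was 29.2 to 50.6 in KO small intestine, against 7.87 to 13.9 in WT small intestine. The sum of the fibroblast markers was 447 to 450 in KO small intestine, against 214 to 275 in WT small intestine, and that of smooth muscle markers 439 to 536 against 159 to 285.

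All markers of these 5 lists were measured, and none passed as lower. The 5 endothelium markers had medians of 0.40 in the small and -0.39 in the large intestine, and none of them passed in limma. Skeletal muscle markers, of which 5 were measured, summed to 6.63 to 12.7 in KO small intestine, against 1.78 to 3.84 in WT small intestine. Of 7 gut epithelium markers 1 was higher and 1 lower, with a median of -0.27. In the large intestine 1 of these 7, Krt20, was higher (2.04 ± 0.25, adjusted p = 0.0413 in limma), all 7 had positive differences (median 0.37), and so had all 6 large intestine epithelium markers, none of which passed (median 0.96, against -1.17 in the small intestine). Pancreas markers summed to 0.489 to 0.690 in KO small intestine, against 14.5 to 19.05 in WT small intestine. Of the 6, Ctrb1 was lower without passing (-6.09, adjusted p = 0.117 in limma) and Cela1 was higher (1.92, adjusted p = 0.0285). Liver markers summed to 68.4 to 87.9 in KO small intestine, against 126 to 157 in WT small intestine. None of the 7 passed in limma, with 1 under an unadjusted p of 0.05. Alb added almost nothing to these sums, at -7.16 and -8.38 in KO small and -6.28 and -5.95 in WT small intestine. In the large intestine none of the neuron, glial, mesothelial, fibroblast or smooth muscle markers passed in limma, 3 fibroblast markers and 1 mesothelial marker had an unadjusted p under 0.05, and their list medians were -0.41 to -0.13. The part of these markers in the differences of the 10 genes was not tested.

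Some of these lists also differed between WT segments. Smooth muscle markers were higher in WT large than in WT small intestine for 4 of 6 genes (median 1.25) and fibroblast markers for 3 of 8 (median 0.78), where 9.93% of all genes were higher. Of the neuron markers 1 of 6 was higher, and no glial or mesothelial marker passed in limma, with 1 of each under an unadjusted p of 0.05. In KO against WT large intestine, where the medians of all 5 lists were negative, the difference was 0.61 for Dlk1 and -0.36 for Meg3. KO large intestine array 2, with liver signal, had the higher of the 2 Igf2 levels of its group (-1.08 against -2.50 on array 3). Grb10, Peg3, Plagl1, Mest and Meg3 were also higher on array 2 than on array 3. H19, Dlk1, Dio3 and Cdkn1c were lower on it. Without KO large intestine array 2 the KO difference of Igf2 in the large intestine was -0.49. The part of the liver signal in these levels was not tested.

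**Figure D5:**
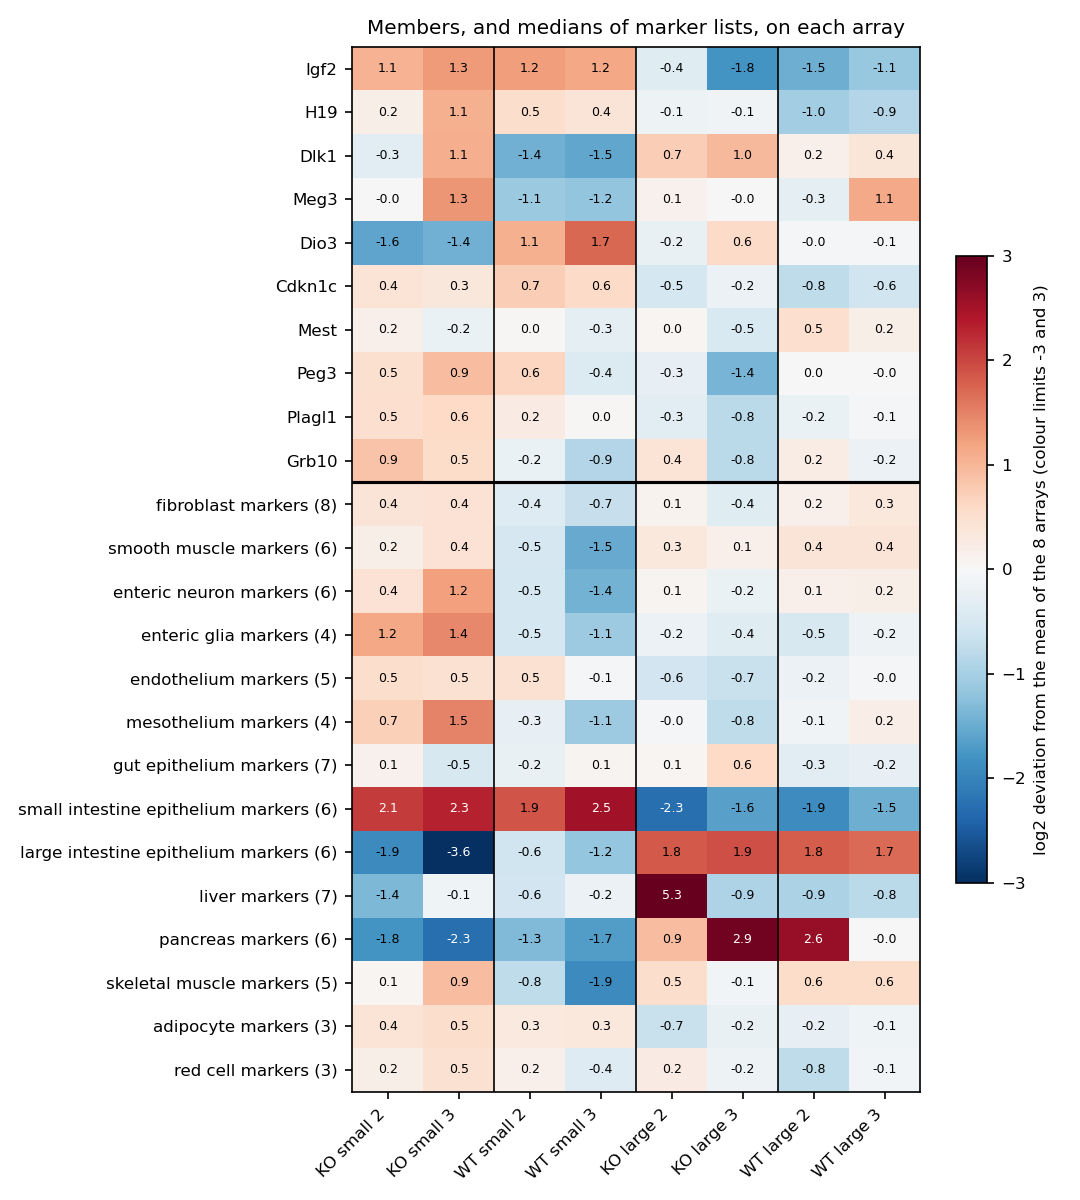
Deviation of each of the 10 genes (top), and the median deviation of each marker list (bottom, number of genes in brackets), from its mean over the 8 arrays (log2; red above, blue below, colours limited at -3 and 3), with the arrays of KO small, WT small, KO large and WT large intestine from left to right. Dlk1 and Meg3 are below their mean on both WT small intestine arrays, as are the neuron, glial, mesothelial, fibroblast and smooth muscle lists. The endothelium list lies at 0.46 and -0.06 on those arrays.

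Other imprinted genes were read from a list of 43, of which 39 were measured. In KO small intestine 7 were higher and 2 lower than in WT small intestine (6.38% and 3.5% of all genes), with a median of 0.33 against -0.10 for all genes. The higher ones were Nap1l5 (2.12 ± 0.47), Mirg, Usp29 (1.82 ± 0.43), Ndn, Slc38a4 (1.60 ± 0.37), Inpp5f (1.49 ± 0.22) and Dcn (0.97 ± 0.20), which is also 1 of the fibroblast markers. Ndn, which encodes necdin, a protein of postmitotic neurons, read 0.74 and 1.32 in KO small intestine, against -0.25 and -1.02 in WT small intestine (1.66 ± 0.36, adjusted p = 0.0419 in limma). The lower ones were Dio3os and Kcnq1. Phlda2, a growth-restraining gene of the placenta beside Cdkn1c, had a difference of 2.27 and did not pass (adjusted p = 0.0779 in limma). None of the 39 passed in the large intestine in limma, 6 had an unadjusted p under 0.05, and the median was -0.19. With 1 array left out in turn, 0 to 11 were higher and 1 to 4 lower, the fewest without array 3 of KO or of WT small intestine and the most without KO small intestine array 2.

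Of 27 genes that act with Igf2 in the insulin-like growth factor pathway, 7 were higher and 3 lower in KO small intestine (6.38% and 3.5% of all genes), with a median of 0.64 against -0.10 for all genes. Igf1, the growth factor of later life, read 2.17 and 2.57 in KO small intestine, against 1.03 and 0.83 in WT small intestine (1.44 ± 0.28, adjusted p = 0.0367 in limma). The binding proteins Igfbp5 (2.00), Igfbp6 (1.95) and Igfbp7 (1.15) were higher, as were the proteases Pappa (2.19) and Pappa2, which cleave such binding proteins, and Pik3r1 (1.04). Pappa2 read -0.31 and 0.17 in KO small intestine, against -3.63 and -4.15 in WT small intestine (3.82 ± 0.30, adjusted p = 0.00555). The lower ones were the insulin receptor Insr (-0.89), the RNA-binding protein Igf2bp3 (-1.35) and the adaptor Grb7 (-1.70), a relative of Grb10. With 1 array left out in turn, 1 to 8 were higher and 0 to 4 lower, with 1 higher and 0 lower without array 3 of KO or of WT small intestine or without either WT large intestine array. In the large intestine none passed in limma, 4 had an unadjusted p under 0.05, and the median was -0.14.

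Dio3 acts in a pathway of thyroid hormone transport, conversion and reception. The list read for it held 14 other measured genes, among them Dio3os, the noncoding RNA beside Dio3 that was already counted above. In KO small intestine 2 were higher and 3 lower (6.38% and 3.5% of all genes), with a median of -0.30 against -0.10 for all genes. The thyroid hormone binding protein Crym was higher by 2.63 ± 0.42 (adjusted p = 0.0281 in limma) and the corepressor Hr by 1.07 ± 0.24 (adjusted p = 0.0444). The lower ones were Dio3os, the receptor Thrb (-2.69 ± 0.44, adjusted p = 0.0285) and its partner Rxra (-1.31 ± 0.25, adjusted p = 0.0363). Thrb read -1.95 and -3.27 in KO small intestine, against -0.24 and 0.39 in WT small intestine, so that the groups were clear of each other. With 1 array left out in turn, 0 to 3 were higher and 1 to 4 lower, the fewest without array 3 of KO or of WT small intestine or without either WT large intestine array. None passed in the large intestine in limma and 2 had an unadjusted p under 0.05.

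The shorter lists held fewer calls in the small intestine. Of the 7 other CDK inhibitors none passed in limma and 1 had an unadjusted p under 0.05. Of 11 Notch pathway genes, the target Hey1 was higher (0.94) and the ligand Dll1 was lower (-1.16). Of 11 other fetal growth regulators, Lin28b was higher (1.78 ± 0.29), and Plagl2, a relative of Plagl1, and Mycn were lower (-2.12 ± 0.32 and -1.24 ± 0.27). Of 12 genes that keep or write DNA methylation, the methyltransferase Dnmt3b alone passed, at -1.10 ± 0.17 (adjusted p = 0.0276 in limma). None of these 4 lists held a call in the large intestine in limma, where 0, 1, 3 and 1 genes had an unadjusted p under 0.05, and Mycn, at -1.44 over both segments (adjusted p = 0.0436 in limma), was the call of these lists over both segments. With 1 array left out in turn, the Notch list held 0 calls in the small intestine for every omission other than that of KO small intestine array 2, which left 1 lower. The fetal growth and DNA methylation lists held 0 without array 3 of KO or of WT small intestine or without either WT large intestine array.

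The genes whose pattern over the 8 arrays lay closest to that of Igf2, H19 and Dlk1 were picked by the root mean square difference of mean-centred log2 values. Genes with clone, predicted-locus or Riken names were passed over. For Igf2, whose own SD over the arrays was 1.33, they were Ttc21a (0.26), Slurp2 (0.29), Haao (0.31), Utf1 (0.33) and Zfp57 (0.35). Ttc21a was well above background on 1 KO large and 0 WT large intestine arrays. For H19 (own SD 0.71) they were Dok3 (0.20), Itgb2 (0.22), Chrna2 (0.23), Hba-ps4 (0.25) and Paip1 (0.26). For Dlk1 (own SD 1.03) they were Plce1 (0.21), Arhgap36 (0.23), Cilp (0.24), Etv4 (0.25) and Gmpr (0.26). Zfp57, a zinc finger protein that guards imprints, read -0.56 and -0.63 in KO small intestine, against 0.08 and 0.13 in WT small intestine, and -2.19 and -2.75 in KO large intestine, against -2.53 and -2.35 in WT large intestine. Among the 10 genes the closest pairs were Peg3 with Plagl1 (0.33), H19 with Cdkn1c (0.35) and Cdkn1c with Plagl1 (0.46). The gene closest to Dlk1 was Meg3 (0.56). The points share libraries, so these values describe the arrays and carry no test.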

How the data were processed

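Total RNA of 8 intestinal samples was read on Agilent 1-colour mouse 8x60K arrays, all on 1 slide, with groups taken from the sample titles. Each array's deposited file gives processed spot intensity made by Agilent Feature Extraction 10.7.3.1 (per the file headers), with background subtracted within the array. The authors also deposited a table of normalized intensity, with column medians of 159 to 160.87, whose scaling steps are unknown here; its log2 values correlated at r of at least 0.9959 with those of the same array. The submitters' processing notes name R 3.3.0.

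The scanner intensity was put on a log2 scale relative to the array's own 75th percentile of 59305 non-control spots (2642.5 to 3571.77). Flagged spots were left out (148 to 312 an array), spots of a probe were averaged, and 38717 of 55681 probes were kept, which 1 group or more had well above background on its 2 arrays. Probes were named by accession (26056), current symbol (3200), older symbol (930) or the file's name (2653). The probe with the highest mean stood for a gene, which gave 20116 genes. The comparisons used limma 3.58.1 under R 4.3.3 on all 8 arrays with 4 residual degrees of freedom (5 for both segments, with segment as a term). P-values were adjusted by Benjamini-Hochberg, with a threshold of 0.05. The fit was tested on simulated data. The number of arrays limits the precision, with a median SE of 0.28 over all genes for a difference of 2 groups.

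The text names all 10 genes with their probes and up to 4 genes of each list with the smallest p in a KO comparison. It also names whole lists where they stand beside a result. The 5 genes most like Igf2, H19 and Dlk1 were taken from genes without clone, predicted-locus or Riken names. List genes beyond these, Alb, Amy2a5, Xist, Ddx3y, Car4, Slc26a3, Krt20, Ctrb1, Cela1 and the interval genes were named after their values were seen. The genes, lists and alternatives were chosen with earlier results of these data known. The counts per list with 1 array left out were an alternative added after the data were seen. One probe and 1 listed gene are not reported here.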

Additional observations from a re-analysis of the deposited data

Results flagged for a closer look

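Cdkn1c and Plagl1 were flagged because their KO arrays lay on 1 side of the WT arrays in the small intestine and on the other side in the large intestine. The share of all genes with this joint pattern was not counted. For Cdkn1c the KO difference of the large intestine minus that of the small intestine was 0.60 ± 0.29, from -0.28 in the small and 0.31 in the large intestine, and the interaction test gave an adjusted p of 0.250 in limma. For Plagl1 the same quantity was -0.85 ± 0.33, from 0.42 in the small and -0.43 in the large intestine, with an adjusted p of 0.166 in limma. The other 3 Plagl1 probes gave -0.82, -0.24 and -0.083 for it, the first of them sharing sequence with the probe that stood for the gene. Neither passed, and groups of 2 arrays fail to overlap often: 59.3% of all genes did not overlap in the small and 55.3% in the large intestine.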

How the results depend on the processing

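Of 830 values of the 10 genes under the alternatives, 769 kept their direction and side of the threshold, 35 no longer passed, 3 newly passed and 23 changed sign; the cause of these changes was not tested. Counts of all genes that passed were 1988 (small intestine), 62 (large intestine), 131 (both segments), 28 (difference between segments) and 3995 (WT segments). With 1 array left out in turn they ranged from 70 to 3831, 0 to 86, 1 to 58, 1 to 941 and 900 to 4988. Normexp background correction gave 85 over both segments. Without a background filter the counts were 485, 19, 53 and 15 for the first 4 comparisons, with probes well above background on all 8 arrays 32 in the large intestine and 5 for the difference, and with the compared groups alone 33 in the small and 122 in the large intestine.

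The replicate numbers follow the rows of the slide, and the labels do not say that they pair samples. Deviations of same-numbered arrays correlated at 0.009 to 0.263. Array 3 of both KO groups shared high Xist and low Ddx3y, and whether same-numbered arrays came from 1 pup was not tested. With the replicate number as a block, 1149 genes passed in the small intestine, 15 in the large intestine and 66 over both segments. Of the calls among the 10 genes the block ended that of Dlk1 in the small intestine (1.87, adjusted p = 0.0521 in limma).

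Sign changes concerned values that did not pass. Normexp turned Igf2 in the small intestine to 0.0075, and Cdkn1c over both segments was -0.086 under quantile normalization and -0.035 in the deposited table. The other sign changes came with 1 array left out, and the ranges over the 8 omissions were as follows. In the small intestine, Igf2 was -0.15 to 0.064, H19 -0.27 to 0.62 and Mest -0.071 to 0.28. In the large intestine, Igf2 was -0.49 to 0.94, Meg3 -1.06 to 0.34, Dio3 -0.17 to 0.64 and Grb10 -0.82 to 0.40. Over both segments, Igf2 was -0.22 to 0.35, Cdkn1c -0.12 to 0.11, Peg3 -0.47 to 0.25 and Plagl1 -0.13 to 0.18. The difference between segments of Igf2 was -0.44 to 0.98, and Peg3 between WT segments was -0.64 to 0.42.

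With 2 arrays a group, differences well above the median SE of 0.28 also missed the threshold. Examples in the small intestine were Meg3 at 1.81 ± 0.56 and Grb10 at 1.23 ± 0.44. A missed threshold does not show that levels were alike.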
